A study of Mus musculus with 33 samples.

Results

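Gpr17 and 9 other genes of the oligodendrocyte lineage were followed in the mouse hippocampus: Pdgfra, Cspg4, Vcan, Olig1, Olig2, Sox10, Nkx2-2, Bcas1 and Enpp6. The members are all probe sets that the platform annotation assigns to 1 of these 10 genes and to no other, which gave 25 of the 45037 non-control probe sets on the array. Of these 25, 13 probe sets of 9 genes lay past the filter on dim signals and were tested among 27022. Both probe sets of Enpp6 lay below it.

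RNA from the right hippocampi of 33 male mice was hybridised to Affymetrix MOE430 2.0 arrays, with 1 array for each animal. There were 3 groups of 11. The wild-type littermates and the first Tg2576 group received vehicle, and the other Tg2576 group received TO901317 by oral gavage at 50 mg per kg per day. Tg2576 mice are heterozygous for human APP with the Swedish mutation, expressed from the prion promoter, and all animals shared the SJL × C57BL/6J background and an age of 20 weeks. TO901317 activates the liver X receptors, nuclear receptors that raise the export of cholesterol from cells and the making of fatty acids. The labels give 7 days of dosing in one place and 5 days in another, and killing 1 hour after the last dose. Vehicle-treated Tg2576 mice therefore serve both as the transgenic group in the genotype comparison and as the controls in the drug comparison, and the wild types are likewise used in both comparisons with them. Wild-type animals given the drug were not analysed here.

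Oligodendrocytes form from precursor cells that persist and divide in the adult brain. The precursors carry the receptor Pdgfra and the proteoglycan Cspg4, also known as NG2, and all cells of the lineage use the transcription factors Olig1, Olig2 and Sox10. As a precursor commits to differentiate it passes through a stage that expresses the G protein-coupled receptor Gpr17, and then through a newly formed stage marked by Bcas1 and Enpp6, before the myelin genes reach their full level. Gpr17 is switched off before myelination is complete.

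Signals were linear array intensities whose trimmed mean was 99.97 in each animal, and array medians ran from 19.4 to 28.9. In the vehicle Tg2576 group, replicates 3 and 4 had log2 ratios of the 3' to the 5' Gapdh control probe set, a measure of RNA integrity, of 0.11 and 0.079, and the other 31 arrays had ratios of at most -0.077. Results that rest on these arrays are given with and without them. The hippocampal neuron genes Neurod6 and Prox1 read 566 ± 92.1 and 51.4 ± 15.01 in wild type (SD, n = 11). Ttr, a choroid plexus gene, had an SD of 2043 around a mean of 2111 in the same animals. Differences below are on the log2(signal + 16) scale, which understates those of dim probe sets. They come from 1 limma fit to all 33 arrays, with p-values adjusted by Benjamini-Hochberg over 27022 probe sets and a threshold of 0.05. The labels number the animals as biological replicates. In this bulk tissue, fewer cells of a type and less RNA per cell cannot be told apart.

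No member passed the adjusted threshold in any comparison. Against wild type, vehicle Tg2576 mice had 0 of 13 member probe sets called, where 0.159% of all probe sets tested were called. TO901317 against vehicle also had 0 of 13, beside 0.141% of all probe sets. Treated Tg2576 against wild type had 0 of 13, beside 0.144%. The smallest adjusted p among the members was 0.150, 0.223 and 0.0730 in the 3 comparisons in that order (limma).

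Most members nevertheless read lower in vehicle Tg2576 than in wild type. Of the 13 probe sets, 10 had a difference below 0, with a median of -0.22, and over all probe sets tested the median was 0.0003. At an unadjusted p under 0.05, 7 of 13 were lower and 0 higher, where 4.77% of all probe sets tested were lower at that level. These 7 were the probe sets of Gpr17, Olig1, Olig2, Bcas1 and Nkx2-2 and 1 each of Cspg4 and Sox10. The Sox10 one, 1425369_a_at, averaged under the filter limit in vehicle Tg2576 and passed the filter through the other groups, where it was higher. Without vehicle Tg2576 replicates 3 and 4 the count was 6 of 13, with the score of a list of mature myelin genes as a covariate it was 4 of 13, and with the score of meningeal fibroblast markers, which were higher in the same mice, it was 5 of 13. The share of all probe sets lower at that level was not taken in these 3 refits, so their counts have no background beside them.

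With TO901317, the members did not shift together. Of the 13, 8 lay above 0 and 5 below, with a median of 0.05 beside 0.0037 for all probe sets tested. At an unadjusted p under 0.05, 2 were higher, 1425369_a_at of Sox10 and that of Nkx2-2, where 5.67% of all probe sets were higher, and 0 were lower. The Sox10 probe set averaged under the filter limit in vehicle Tg2576 and passed through the groups where it was higher. Its place in this count is therefore no support for a rise. Without vehicle Tg2576 replicates 3 and 4 the count of higher probe sets was 1. In treated Tg2576 mice against wild type, 3 of 13 were lower at that level, those of Gpr17, Olig1 and Bcas1, where 4.01% of all probe sets were lower. The median of the 13 was then -0.06, beside 0.0054 for all probe sets tested.

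**Figure D1:**
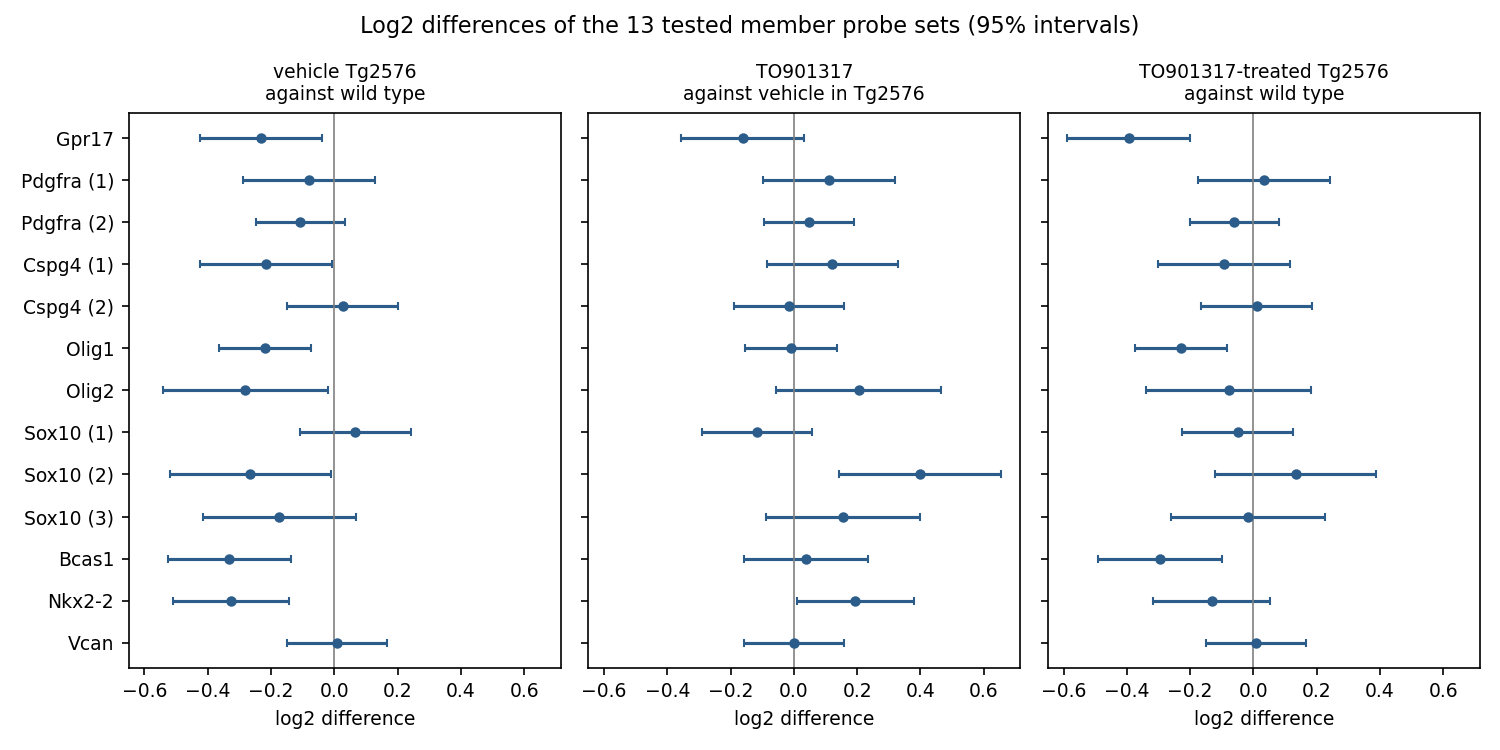
Log2 differences of the 13 tested member probe sets (points) with unadjusted 95% intervals (bars) in the 3 comparisons, with each horizontal axis in log2 units of signal + 16. Intervals of 7 probe sets lie below 0 in the left panel, 2 lie above 0 in the middle panel and those of Gpr17, Olig1 and Bcas1 lie below 0 in the right panel. Pdgfra (1) and (2) are 1421916_at and 1421917_at, Cspg4 (1) and (2) are 1423341_at and 1450944_at, and Sox10 (1), (2) and (3) are 1424985_a_at, 1425369_a_at and 1451689_a_at.

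Gpr17, the receptor of committed precursors, had 1 probe set, 1456833_at. In wild type it read 157 ± 22.8 (SD, n = 11), with a lowest of 117, a median of 152 and a highest of 202. In vehicle Tg2576 it read 131 ± 17.1, with 97.9, 134 and 155 for the same 3 values. In treated Tg2576 it read 117 ± 24.0, with 56.8, 122 and 148. The groups stepped down in that order and overlapped, and the lowest treated animal, replicate 6, read far under the next, at 107.

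The Gpr17 difference between vehicle Tg2576 and wild type was -0.23 (SE 0.095, unadjusted p = 0.0196, limma adjusted p = 0.410), and 10 of 11 vehicle Tg2576 animals lay below the wild-type median. Treated against vehicle Tg2576 differed by -0.16, with a 95% interval from -0.36 to 0.03 and an adjusted p of 0.570. Without treated replicate 6 this second step was -0.078. Neither step between neighbouring groups passed the adjusted threshold. Between the ends of the order the difference was -0.39 (95% interval -0.59 to -0.20, unadjusted p = 0.00019, limma adjusted p = 0.0730). All 11 treated animals lay below the wild-type median and 5 lay below the lowest wild-type animal. This contrast ranked 72 of 27022 by p. With 1 probe set per gene, the brightest, the limma adjusted p was 0.0476, a call. With the mean of each gene's probe sets, over the same 12765 genes, 0 of 9 members were called. Without treated replicate 6 the difference was -0.31 with an adjusted p of 0.0981.

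**Figure D2:**
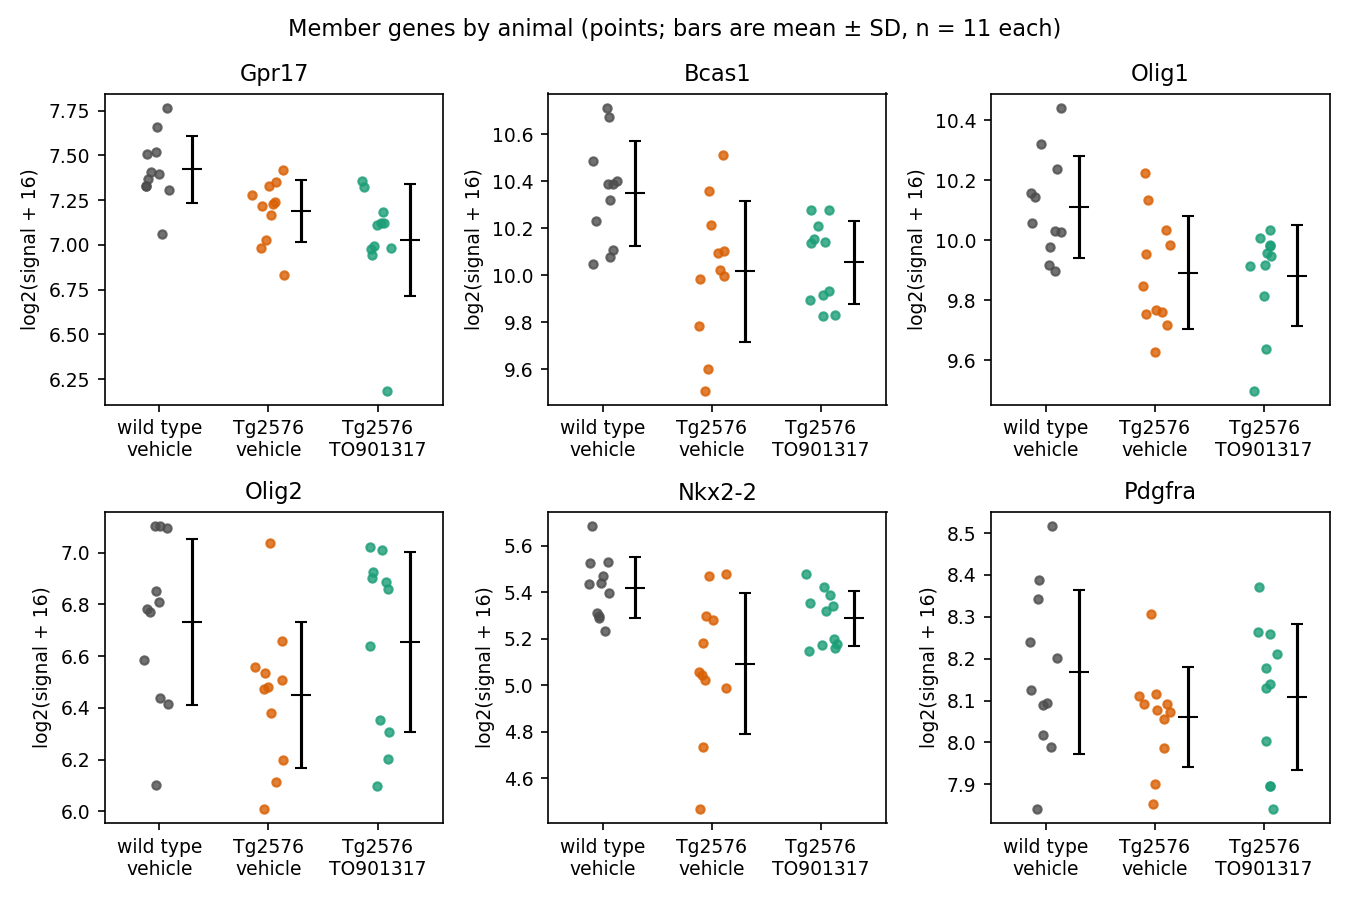
Log2(signal + 16) of the brightest probe set of 6 members in each animal (points), with the mean ± SD of each group of 11 beside them. All 11 treated animals lie below the wild-type median for Gpr17, Bcas1 and Olig1, and 7 vehicle Tg2576 animals lie below the lowest wild-type animal for Nkx2-2.

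Pdgfra, the receptor for platelet-derived growth factor that drives precursor division, had no called difference. Its bright probe set, 1421917_at, read 274 ± 39.8 in wild type (lowest 213, median 263, highest 350), 252 ± 22.4 in vehicle Tg2576 (215, 254 and 301) and 262 ± 33.1 in treated Tg2576 (213, 266 and 315). The groups overlapped almost wholly. The genotype difference was -0.11 (95% interval -0.25 to 0.03, limma adjusted p = 0.659) and the drug difference 0.05 (-0.09 to 0.19, limma adjusted p = 0.863). The dim probe set 1421916_at gave -0.08 and 0.11. The remaining one, 1438946_at, averaged 8.90 over all arrays, below the filter. In the fit without a filter its drug difference was 0.29 (unadjusted p = 0.0477, limma adjusted p = 0.560), with 1 of 11 treated animals below the vehicle Tg2576 median. Pdgfra is also expressed by meningeal fibroblasts. The 12 fibroblast markers of a list were higher in vehicle Tg2576 for 11 of 12, with a median of 0.45. None was called, and 9 of 12 were higher at an unadjusted p under 0.05, where 1332 of all 27022 probe sets tested were higher. The summed signal of the list ran from 709 to 2346 in wild type, 886 to 2751 in vehicle Tg2576 and 672 to 2179 in treated Tg2576. None of the 12 was at 0. The lowest mean signal of a marker in any group was 12.0, in wild type, under the filter limit of 13.9. That marker passed the filter through the Tg2576 groups, where it was higher. Any place it has in the count of higher markers is therefore no support for a rise. Across animals, with group means subtracted, 1421917_at had r = 0.32 with the score of these markers (rho 0.38), and neither passed (permutation p = 0.0774 and 0.0390, n = 33, adjusted p = 0.197 and 0.150 over 63 relations, r = 0.27 without the 2 farthest animals). With the fibroblast score as a covariate, the genotype difference of 1421917_at was -0.15.

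Cspg4 encodes a membrane proteoglycan of precursors that pericytes also carry. Its probe sets disagreed. 1423341_at read 35.7 ± 7.2 in wild type (lowest 22.8, median 37.8, highest 47.1), 29.1 ± 10.0 in vehicle Tg2576 (17.0, 25.5 and 48.9) and 32.4 ± 6.4 in treated Tg2576 (25.1, 30.0 and 41.9), with a genotype difference of -0.22 (unadjusted p = 0.043, limma adjusted p = 0.499). The slightly brighter 1450944_at read 33.5 ± 5.3, 34.5 ± 6.2 and 34.2 ± 8.1 and gave 0.03 (limma adjusted p = 0.956). Drug differences were 0.12 and -0.02. Across animals the second probe set had r = -0.34 with the score of 10 pericyte and smooth muscle markers (Spearman rho -0.25), and neither passed (permutation p = 0.0770 and 0.174, n = 33, adjusted p = 0.197 and 0.352 over 63 relations). The summed signal of these markers ran from 1189 to 2519 in wild type, 1390 to 1903 in vehicle Tg2576 and 1274 to 2563 in treated Tg2576, with none at 0, and their part in the Cspg4 signal was not tested.

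Vcan encodes versican, a chondroitin sulphate proteoglycan of the extracellular matrix that precursors make. It was the most even member. The 1 tested probe set of its 8, 1427256_at, read 66.8 ± 11.1 in wild type (lowest 48.9, median 68.0, highest 84.0), 67.3 ± 10.4 in vehicle Tg2576 (49.0, 68.5 and 83.8) and 67.0 ± 8.2 in treated Tg2576 (53.3, 68.5 and 79.0). Differences were 0.0094, -0.00074 and 0.0087 in the 3 comparisons, and the interval of the genotype difference ran from -0.15 to 0.17. The other 7 Vcan probe sets averaged between 1.41 and 10.7 over all arrays, under the filter limit of 13.9.

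Olig1, a basic helix-loop-helix factor of the whole lineage, was lower in both Tg2576 groups. Its probe set 1416149_at read 1096 ± 135 in wild type (lowest 938, median 1049, highest 1375), 941 ± 128 in vehicle Tg2576 (775, 904 and 1179) and 932 ± 102 in treated Tg2576 (707, 971 and 1032). In vehicle Tg2576, 6 of 11 animals lay below the lowest wild-type animal, and in the treated group all 11 lay below the wild-type median. The genotype difference was -0.22 (SE 0.072, unadjusted p = 0.0041, limma adjusted p = 0.242) and that of treated Tg2576 against wild type -0.23 (limma adjusted p = 0.252). Between treated and vehicle Tg2576 it was -0.0099, with a 95% interval from -0.15 to 0.14.

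Olig2, the partner factor that specifies the lineage, varied more between animals. It read 92.6 ± 23.0 in wild type (lowest 52.7, median 94.0, highest 121), 73.0 ± 18.1 in vehicle Tg2576 (48.4, 73.3 and 115) and 87.3 ± 23.5 in treated Tg2576 (52.4, 99.98 and 114). The ranges of the 3 groups were nearly the same, though 10 of 11 vehicle Tg2576 animals lay below the wild-type median. The genotype difference was -0.28 (unadjusted p = 0.0347, limma adjusted p = 0.467), the drug difference 0.20 (limma adjusted p = 0.603), and treated mice stood at -0.08 from wild type.

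For 6 of the 10 members the RefSeq promoter table (GRCm38.p6) held a window, and those of Cspg4 and Olig2 lay upstream of the gene's outermost start. They are shown because SOX factors and basic helix-loop-helix factors are members themselves. In the 250 bases before the start, matches on both strands were searched to the E-box CANNTG, the basic helix-loop-helix site, and to ACAAAG or ACAATG, a core that SOX factors bind. Capitals mark a match. The Olig2 window is chr16:91225300-91225549 and the Cspg4 window chr9:56864854-56865103, both on the + strand.
Olig2: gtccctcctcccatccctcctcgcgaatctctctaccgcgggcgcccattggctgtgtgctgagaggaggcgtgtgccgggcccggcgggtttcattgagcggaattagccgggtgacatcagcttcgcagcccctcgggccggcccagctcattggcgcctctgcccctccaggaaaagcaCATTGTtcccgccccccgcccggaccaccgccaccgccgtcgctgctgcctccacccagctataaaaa
Cspg4: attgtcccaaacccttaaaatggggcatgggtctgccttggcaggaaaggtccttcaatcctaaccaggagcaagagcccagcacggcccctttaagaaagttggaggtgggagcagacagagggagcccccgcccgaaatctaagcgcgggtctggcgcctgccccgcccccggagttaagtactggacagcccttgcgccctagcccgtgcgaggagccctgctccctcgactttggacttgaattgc
The Olig2 window held 1 SOX core, which begins 68 bases before the start, and 0 E-boxes. The Cspg4 window held neither. Of 32851 promoter windows of the same length in the table, 66.2% held an E-box and 25.2% a SOX core. No member's window held both motifs, so they could not overlap. No binding was measured in these animals.

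Sox10, the factor that activates many myelin genes directly, had 3 tested probe sets, and they did not move as one. The brightest, 1451689_a_at, read 104 ± 27.0 in wild type (lowest 67.9, median 103, highest 156), 90.5 ± 22.8 in vehicle Tg2576 (65.4, 85.1 and 130) and 102 ± 21.8 in treated Tg2576 (67.5, 101 and 144), and its 3 differences were -0.17, 0.16 and -0.02. The groups overlapped over most of their range. 1424985_a_at gave differences of 0.07, -0.12 and -0.05. The dimmest, 1425369_a_at, read 18.4 ± 7.4, 12.5 ± 6.1 and 21.1 ± 4.9, near the filter limit of 13.9. Its vehicle Tg2576 mean lay below that limit, so it passed the filter through the other groups, where it was higher. Its drug difference was 0.40 (SE 0.13, unadjusted p = 0.0031, limma adjusted p = 0.223) and ran from 0.16 with a pseudocount of 64 to 0.85 with a pseudocount of 1. Its genotype difference was -0.27 (limma adjusted p = 0.494).

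Nkx2-2 is a homeodomain factor that promotes the step from precursor to myelinating cell. Its only probe set, 1421112_at, was dim and read 27.0 ± 4.0 in wild type (lowest 21.7, median 27.3, highest 35.4), 18.8 ± 6.9 in vehicle Tg2576 (6.14, 17.3 and 28.6) and 23.2 ± 3.2 in treated Tg2576 (19.5, 23.9 and 28.6). In vehicle Tg2576, 7 of 11 animals lay below the lowest wild-type animal. All 11 treated animals lay above the vehicle Tg2576 median. The genotype difference was -0.33 (SE 0.091, unadjusted p = 0.00093, limma adjusted p = 0.150), rank 167 of 27022, and the drug difference 0.19 (unadjusted p = 0.0383, limma adjusted p = 0.439).

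Nkx2-2 correlated with the array median, and with the Gapdh ratio by r but not by rho. The lowest vehicle Tg2576 values, 6.14 and 10.6, came from replicates 4 and 3, the arrays that stood apart in the Gapdh ratio. Without both, the genotype difference was -0.22 (limma adjusted p = 0.379) and the drug difference 0.086 (limma adjusted p = 0.792). With the Gapdh ratio as a covariate they were -0.27 and 0.11. Over all 33 arrays with group means subtracted, Nkx2-2 had r = -0.70 with the Gapdh ratio (rho -0.42, permutation p = 0.00085 and 0.0257, adjusted p = 0.0076 and 0.0770 over 18 relations) and -0.45 without the 2 farthest arrays. With the array median it had r = 0.73 (rho 0.66, permutation p = 8e-05 and 0.00012, adjusted p = 0.0014 and 0.0022) and 0.72 without the 2 farthest. Under quantile normalization, which makes the array distributions equal, the genotype difference was -0.35 and was called (limma adjusted p = 0.0475). The part of array quality in the Nkx2-2 values was not tested beyond these fits.

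Bcas1, which marks newly formed oligodendrocytes at the onset of myelination, had, with Nkx2-2, the largest genotype difference of the members tested. Its bright probe set 1428792_at read 1302 ± 207 in wild type (lowest 1044, median 1323, highest 1663), 1040.2 ± 217 in vehicle Tg2576 (712, 1025 and 1446) and 1054 ± 129.9 in treated Tg2576 (892, 1111 and 1226). Below the lowest wild-type animal lay 6 of 11 vehicle and 5 of 11 treated Tg2576 animals. The genotype difference was -0.33 (SE 0.096, unadjusted p = 0.0015, limma adjusted p = 0.176), rank 228 of 27022. Treated against vehicle Tg2576 it was 0.04, with a 95% interval from -0.16 to 0.23, and against wild type -0.29 (limma adjusted p = 0.303). The 2 other Bcas1 probe sets averaged 9.63 and 7.70 and were not tested.

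Enpp6, a choline phosphodiesterase of newly forming oligodendrocytes, lay below the filter limit. Its brighter probe set 1438785_at read 14.1 ± 3.3 in wild type (lowest 9.02, median 13.7, highest 19.4), 8.36 ± 4.7 in vehicle Tg2576 (2.82, 6.96 and 19.0) and 7.42 ± 5.8 in treated Tg2576 (0.943, 7.15 and 16.6). In each Tg2576 group 7 of 11 animals lay below the lowest wild-type animal. In the fit with no filter, which adjusts over 45037 probe sets, the genotype difference was -0.32 (limma adjusted p = 0.417), the drug difference -0.07, and the difference of treated Tg2576 from wild type -0.39 (limma adjusted p = 0.298). The other probe set, 1436090_at, averaged 5.36 over all arrays. Averaged over all arrays, both signals are under the limit of 13.9, though 1438785_at lay just above it in wild type. The values are given as a description.

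Other genes of the same stages, in lists that hold none of the 10 members, did not pass either. These lists, like the members, were chosen with earlier results of these data known. None of the 13 tested genes of another list of precursor genes was called in any comparison, and their medians were -0.15, 0.04 and -0.06. At an unadjusted p under 0.05, 3, 1 and 3 of them were lower and 1, 0 and 1 higher. Of all 27022 probe sets tested, 4.77%, 4.85% and 4.01% were lower at that level, and 1332, 1532 and 1132 were higher. The gene of smallest p in each comparison was Matn4, a matrix protein (-0.30, limma adjusted p = 0.305), Megf11 (-0.24, limma adjusted p = 0.364) and Rlbp1, a retinoid-binding protein (-0.24, limma adjusted p = 0.243). Of 13 other genes of committed and newly formed cells 0 were called, with medians of -0.05, 0.03 and -0.02, and 4, 2 and 1 were lower and 1, 1 and 0 higher at an unadjusted p under 0.05. The smallest p belonged to the homeodomain factor Nkx6-2 (-0.29, limma adjusted p = 0.367), the CTP synthase Ctps (-0.17, limma adjusted p = 0.378) and the small GTPase Rras2 (-0.22, limma adjusted p = 0.271). Of 20 genes of signals that act on the lineage 0 were called, with medians of -0.04, -0.0058 and 0.0009, and 3, 0 and 2 were lower and 1, 5 and 0 higher at an unadjusted p under 0.05. In that list Erbb3, a neuregulin receptor, was lower in vehicle Tg2576 (-0.34, limma adjusted p = 0.185), the differentiation inhibitor Id4 was higher with TO901317 (0.22, limma adjusted p = 0.119) and the lysophosphatidic acid receptor Lpar1 was lower in treated Tg2576 than in wild type (-0.25, limma adjusted p = 0.416).

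Mature myelin genes lay on the same side as the members. In vehicle Tg2576 against wild type 17 of 18 were below 0, with a median of -0.17. None was called, and 5 of 18 were lower and 0 higher at an unadjusted p under 0.05. With TO901317 14 of 18 were above 0, with a median of 0.08, and against wild type the treated animals had 16 of 18 below 0 with a median of -0.10, again with 0 called in both, and at an unadjusted p under 0.05 2 of 18 were higher with the drug and 3 of 18 lower against wild type. The genes of smallest p were Ermn, a myelin sheath cytoskeletal protein (-0.35, limma adjusted p = 0.268), Mbp, the major basic protein of myelin (0.16, limma adjusted p = 0.283), and Evi2a (-0.27, limma adjusted p = 0.409). The summed signal of the 18 genes ran from 11021 to 17475 in wild type, 8449 to 16107 in vehicle Tg2576 and 11422 to 16062 in treated Tg2576.

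The genotype differences of the members were therefore refitted with each animal's myelin score, the mean deviation of the 18 genes, as a covariate. Bcas1 had -0.16 (SE 0.052) in place of -0.33 (SE 0.096), and Olig1 -0.11 (SE 0.054) in place of -0.22 (SE 0.072). Olig2 had -0.18 (SE 0.13) in place of -0.28 (SE 0.13), and the brightest Sox10 probe set -0.02 (SE 0.098) in place of -0.17 (SE 0.12). Gpr17 had -0.21 (SE 0.10) in place of -0.23 (SE 0.095) and Nkx2-2 -0.33 (SE 0.097) in place of -0.33 (SE 0.091). For treated Tg2576 against wild type, Gpr17 had -0.38 (SE 0.098) in place of -0.39 (limma adjusted p = 0.114). In that comparison Bcas1 had -0.19 (SE 0.051) in place of -0.29 (limma adjusted p = 0.129). Olig1 had -0.17 (SE 0.052) in place of -0.23 (limma adjusted p = 0.262). The score is measured on the same arrays and shares their errors.

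**Figure D3:**
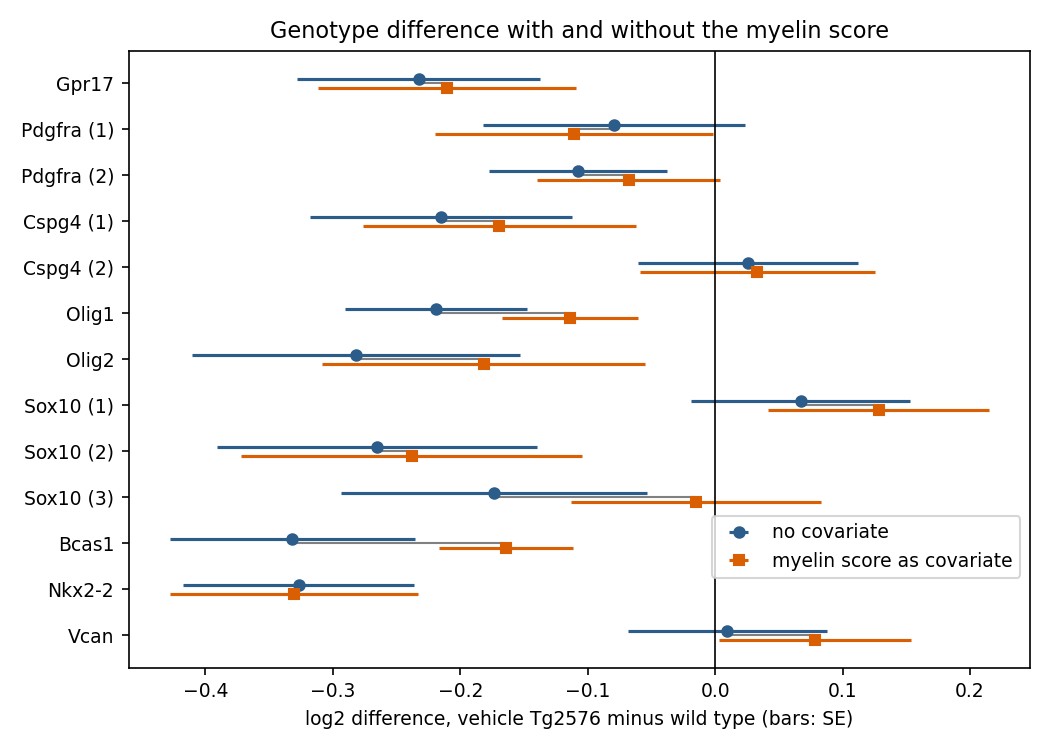
Genotype difference of the 13 member probe sets, vehicle Tg2576 minus wild type in log2 units, without a covariate (circles) and with the mature myelin score as a covariate (squares), with bars of 1 SE and the numbering of probe sets as in the plot of log2 differences. Bcas1 lies at -0.33 and -0.16 and Olig1 at -0.22 and -0.11, and the values of Gpr17 lie at -0.23 and -0.21.

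For some pairs of members, animals high in 1 were also high in the other. With group means subtracted, 7 of 36 pairs among the 9 tested members correlated across the 33 animals at an adjusted p under 0.05 (permutation within groups, 36 relations), all 7 positive. Of the 36, 27 were above 0, with a median r of 0.15, and 6 passed by Spearman rho. With the arrays centred on their medians 15 of 36 passed, and with the mature myelin score subtracted 0 passed. The strongest were Olig1 with Bcas1 (r = 0.75, rho 0.71, permutation p = 2e-05 and 3e-05, adjusted p = 0.00072 and 0.00054, and r = 0.72 without the 2 farthest animals) and Sox10 with Bcas1 (r = 0.71, rho 0.73, permutation p = 4e-05 and 3e-05, adjusted p = 0.00072 and 0.00054, r = 0.63 without the 2 farthest). Within the groups Olig1 and Bcas1 had r = 0.84, 0.76 and 0.65 in wild type, vehicle and treated Tg2576. Sox10 and Bcas1 had 0.88, 0.64 and 0.64. The share of all gene pairs that correlate at this level on these arrays was not computed. Of 12764 genes ranked by r with Olig1, Bcas1 stood at 4, Sox10 at 104 and Vcan at 233.

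Vcan ran with several of these, although its group means were level. Its r was 0.59 with Pdgfra (rho 0.59, permutation p = 0.00049 and 0.00042, adjusted p = 0.0059 and 0.0050, 0.47 without the 2 farthest), 0.55 with Bcas1 (rho 0.58, permutation p = 0.0017 and 0.00077, adjusted p = 0.0155 and 0.0069, 0.54 without the 2 farthest) and 0.47 with Olig1 (rho 0.52, permutation p = 0.0075 and 0.0031, adjusted p = 0.0386 and 0.0224, 0.38 without the 2 farthest). The Pdgfra relation was 0.88 in wild type and 0.71 in treated Tg2576 but 0.02 in vehicle Tg2576, and the difference between these was not tested. Olig1 and Sox10 had r = 0.53 (rho 0.50, permutation p = 0.0021 and 0.0044, adjusted p = 0.0155 and 0.0265, 0.56 without the 2 farthest).

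The only pair of Gpr17 that passed was with Olig2, at r = 0.47 (permutation p = 0.0064, adjusted p = 0.0383), and its rho of 0.37 did not pass (permutation p = 0.0383, adjusted p = 0.115). Without the 2 farthest animals r was 0.31, and within the groups it was 0.44 in wild type, 0.02 in vehicle Tg2576 and 0.71 in treated Tg2576, so the relation rests in part on those animals. With Olig1, Bcas1, Sox10 and Pdgfra, Gpr17 had r = 0.05, 0.21, 0.24 and 0.02 (rho 0.28, 0.26, 0.35 and 0.09), none of which passed. Within vehicle Tg2576 its r was 0.55 with Olig1, 0.56 with Sox10 and 0.74 with Vcan. With these genes it was -0.30, 0.12 and -0.45 within treated Tg2576, and 0.12, 0.17 and 0.27 within wild type. The treated group holds replicate 6, the lowest in Gpr17, and these values were not taken without it. The difference between these correlations was not tested.

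**Figure D4:**
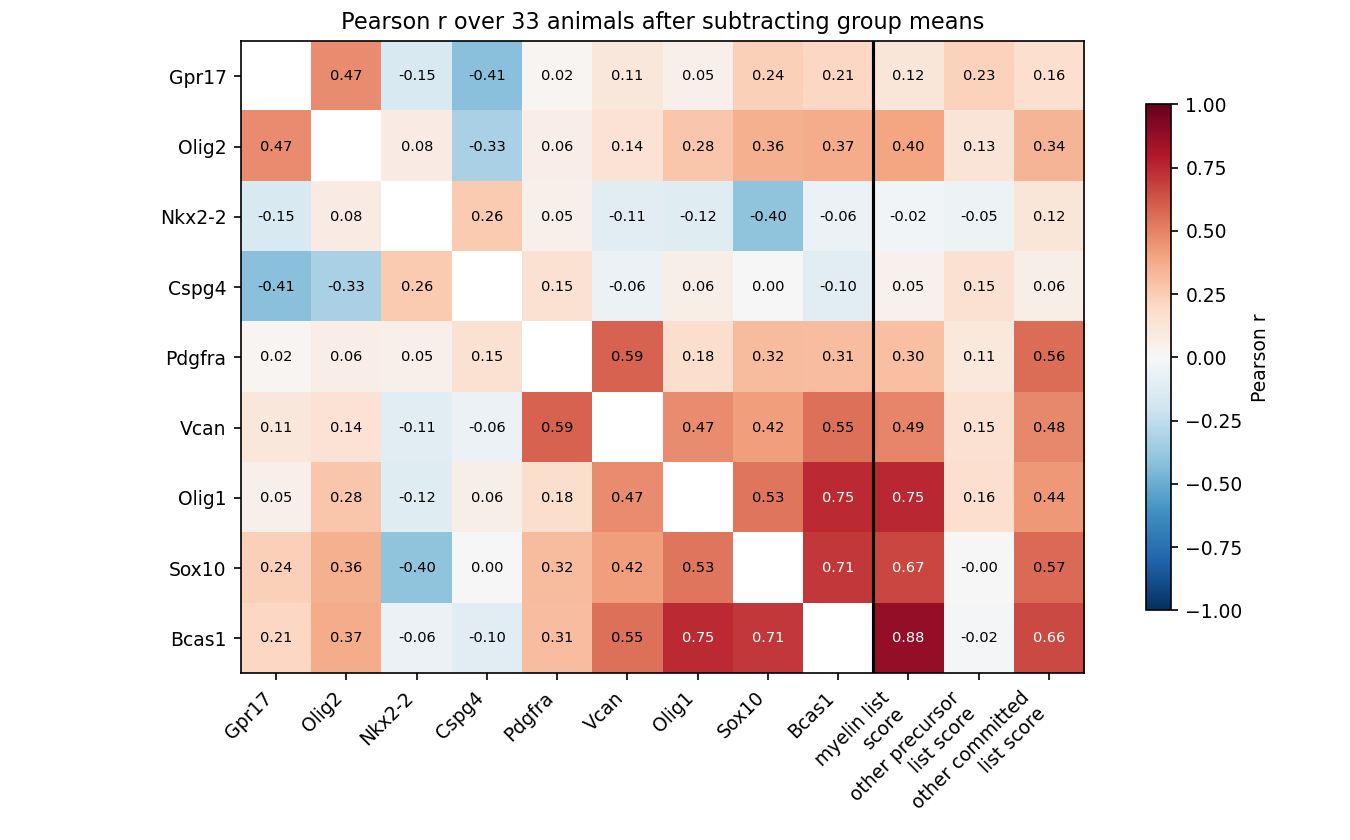
Pearson r between the brightest tested probe sets of 9 members over 33 animals after subtracting group means, and, right of the black line, with the mean scores of 3 other lists. Olig1, Sox10 and Bcas1 have r from 0.53 to 0.75 with each other, and Vcan has 0.59 with Pdgfra and 0.55 with Bcas1. Gpr17 has r = 0.47 with Olig2 and -0.41 with Cspg4, and the latter did not pass (permutation, adjusted p = 0.0963).

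Olig1, Sox10 and Bcas1 followed the mature myelin score. Bcas1 had r = 0.88 with it (rho 0.86, permutation p = 1e-05 for both, the smallest that 100000 resamples can give, adjusted p = 0.00031 and 0.00042 over 63 relations, 0.85 without the 2 farthest animals). Olig1 had 0.75 (rho 0.76, permutation p = 1e-05 and 2e-05, adjusted p = 0.00031 and 0.00042, 0.76 without the 2 farthest) and Sox10 0.67 (rho 0.70, permutation p = 3e-05 and 2e-05, adjusted p = 0.00063 and 0.00042, 0.68 without the 2 farthest). Within the groups Bcas1 kept r = 0.92, 0.88 and 0.84. Vcan had 0.49 (rho 0.58, permutation p = 0.0059 and 0.00079, adjusted p = 0.0462 and 0.0124, 0.57 without the 2 farthest). Gpr17 had r = 0.12 (rho 0.17, permutation p = 0.475 and 0.357, adjusted p = 0.762 and 0.562), and Nkx2-2 -0.02. When the myelin score was subtracted together with the group means, 0 of 36 member pairs passed in place of 7.

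**Figure D5:**
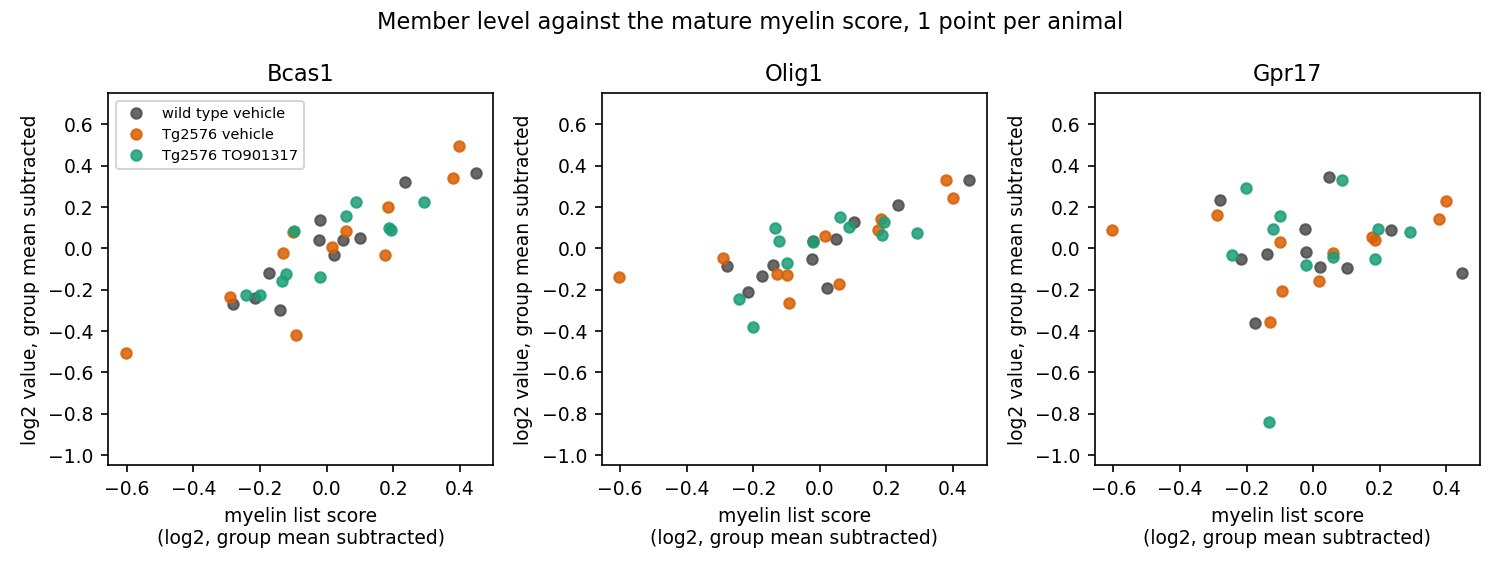
Log2 values of Bcas1, Olig1 and Gpr17 against the mature myelin score, both with group means subtracted, 1 point per animal and 33 in each panel. Bcas1 (r = 0.88) and Olig1 (r = 0.75) are higher in animals with a higher score in all 3 groups, and Gpr17 (r = 0.12) is scattered, with treated replicate 6 lowest.

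Sox10 and Bcas1 also correlated with the list of other committed and newly formed genes (r = 0.57 and 0.66, rho 0.55 and 0.53, permutation p = 0.00099 and 5e-05 for r, adjusted p = 0.0125 and 0.00079, 0.54 and 0.65 without the 2 farthest animals). Pdgfra did as well (r = 0.56, rho 0.52, permutation p = 0.0015 and 0.0031, adjusted p = 0.0161 and 0.0281, 0.45 without the 2 farthest). Pdgfra further correlated with the choroid plexus score (r = 0.52, permutation p = 0.0028, adjusted p = 0.0249, 0.42 without the 2 farthest), though not by rho (0.42, permutation p = 0.0140, adjusted p = 0.104). The summed signal of the 10 choroid plexus genes ran from 393 to 10985 in wild type, 193 to 7709 in vehicle Tg2576 and 957 to 8960 in treated Tg2576. None of the 10 was at 0, the lowest mean of a gene in any group was 15.2, and the part of this tissue in the Pdgfra values was not tested.

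Markers of other cell types were read beside the members. Of 12 astrocyte genes 1 fell in vehicle Tg2576, Slc4a4, a bicarbonate transporter (-0.27, limma adjusted p = 0.0028), and the median of the list was -0.16. Slc4a4 also fell in treated Tg2576 against wild type (-0.29, limma adjusted p = 0.00093). Of 9 endothelial genes 1 rose with TO901317, the transporter Slco1a4 (0.42, limma adjusted p = 0.0250). Of 9 microglia, 10 pericyte and smooth muscle, 12 fibroblast, 10 choroid plexus and 10 neuron genes 0 were called in any comparison. At an unadjusted p under 0.05 the genotype comparison had 6 of 12 astrocyte and 2 of 9 endothelial genes lower with 0 higher. It also had 9 fibroblast genes and 1 neuron gene higher with 0 lower. The fibroblast list holds a marker whose wild-type mean lay under the filter limit. The drug comparison had 3 astrocyte genes higher and 1 lower at that level, 3 endothelial genes, 1 pericyte and smooth muscle gene and 1 neuron gene higher, and 0 lower in these last 3 lists. Treated Tg2576 against wild type had 5 astrocyte genes lower and 0 higher, 1 endothelial gene lower and 1 higher, 1 pericyte and smooth muscle gene lower and 3 higher, and 2 microglia genes and 1 fibroblast gene higher. The lists not named for a comparison had 0 in either direction. The neuron list had medians of -0.0068, 0.04 and 0.06, and the microglia list 0.03, -0.0043 and -0.02. The part of other cell types in the differences of the members was not tested beyond the myelin and fibroblast scores.

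By likeness over all 33 arrays with group means subtracted, the 5 genes of 12764 closest to Gpr17 were Ccpg1os (r = 0.73), Ints12 (0.70), Tra2a (0.69), Spag1 (0.69) and Rida (0.68). Among the members Olig2 came nearest, at rank 367. These values are a description of arrays that share their scaling.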

How the data were processed

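Array intensity values on a linear scale were deposited by the authors, made with MAS5 per the submitters' processing notes. The sources used here do not give its version or settings. Members and gene lists were chosen with earlier results of these data known. Of 45037 non-control probe sets, 34945 name 1 gene in the platform annotation, 932 several and 9160 none. Values were taken as log2(signal + 16), and the lowest 40 percent by mean (limit 13.9) were left out. A model with 1 mean per group was fitted with limma 3.58.1 (R 4.3.3), with a trended and robust eBayes step, and tested on simulated data. Genes named outside the members are, per list and comparison, up to 4 that passed or otherwise that of smallest p. The correlations with array quality and the hippocampal markers were chosen after seeing the data. Correlations used the brightest probe set of each member and two-sided permutation of animals within groups (100000 resamples). List scores are means of the genes' deviations. Alternatives covered the pseudocount, filter, normalization, probe set rule, arrays, covariates, variance model and replicate number. Precision is limited by the number of arrays, 11 per group.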

Additional observations from a re-analysis of the deposited data

How the results depend on the processing

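No member difference with an adjusted p over 0.05 can be read as absent, since 11 arrays per group bound it only to the intervals given, and differences of dim probe sets are understated. The 39 member differences kept their side of the threshold in all fits but 2, Nkx2-2 by genotype under quantile normalization (1 member called in place of 0) and Gpr17 in treated Tg2576 against wild type with the brightest probe set per gene (1 in place of 0). Direction turned in 71 of 1872 refitted differences, all 71 of differences smaller than their SE. The cause of these turns was not tested. For Vcan 1427256_at the drug difference turned to 0.00026 with a pseudocount of 1, 0.024 with the Gapdh ratio as covariate and 0.0024 without vehicle Tg2576 replicates 3 and 4. Its genotype difference turned to -0.0072 with the Gapdh ratio, and its difference of treated Tg2576 from wild type to -0.0047 with median centring and -0.0046 with array weights. Leaving out each array in turn, these 3 Vcan differences ran from -0.035 to 0.026, from -0.025 to 0.044 and from -0.025 to 0.037. For Cspg4 1450944_at the mean of the gene's probe sets gave -0.095, 0.053 and -0.041 in the 3 comparisons, and treated Tg2576 against wild type turned to -0.00054 under quantile normalization, -0.0027 with median centring and -0.0092 with array weights. Leaving out each array gave -0.0037 to 0.054, -0.045 to 0.023 and -0.019 to 0.049. For Sox10 1451689_a_at, treated Tg2576 against wild type turned to 0.022 with the mean of its probe sets, 0.079 with the myelin score, 0.023 with the fibroblast score and 0.012 with the Gapdh ratio, and ran from -0.066 to 0.038 over single arrays left out. The drug difference of Bcas1 turned to -0.028 with the myelin score (-0.013 to 0.087 over arrays left out) and that of Olig1 to 0.0050 with the Gapdh ratio (-0.036 to 0.028). For Pdgfra 1421916_at, treated Tg2576 against wild type ran from -0.019 to 0.071. Over single arrays left out, the members called stayed at 0 in all 3 comparisons, all probe sets called ran from 25 to 58 by genotype, 14 to 51 by drug (14 without treated replicate 6) and 25 to 61 in treated Tg2576 against wild type, and member pairs from 5 to 9. All probe sets called by genotype were 43, with 25 from only the 2 groups compared, 24 with the myelin score and 66 with the Gapdh ratio. By drug they were 38, with 59 when the lowest 60 percent were left out, 16 with median centring and 9 without vehicle Tg2576 replicates 3 and 4. In treated Tg2576 against wild type they were 39, with 66 when the lowest 60 percent were left out, 86 with array weights and 59 with the Gapdh ratio. Member pairs that passed were 15 with median centring and 0 with the myelin score subtracted. Leaving out the lowest 60 percent gives no value for the dimmest 5 of the 13 member probe sets. The replicate number was also used as a block. Same-numbered animals of different groups correlated between -0.15 and 0.26 (median 0.084, 33 pairs). With 13 of the 33 above 0.1, and not every one, the numbers were not taken as pairing the animals. With the replicate block 0 members were called in each comparison and 14 member pairs passed.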

Other observations

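The genes most like the other members over the 33 arrays, were ranked by the same measure as for Gpr17, and the 5 closest are given for the members Bcas1, Olig1, Sox10, Olig2 and Pdgfra, which were picked after their values were seen. Bcas1 was closest to Gpr37 (r = 0.88), Slc44a1 (0.86), Mag (0.85), Pde8a (0.84) and Evi2a (0.83), of which Mag encodes myelin-associated glycoprotein and Gpr37 a receptor of mature oligodendrocytes. Olig1 was closest to Gpr37 (0.83), Ppp1r14a (0.76), the myelin enzyme Cnp (0.75), Bcas1 (0.75) and Plekhb1 (0.74). Sox10 was closest to Cldn11, a tight junction protein of myelin (0.78), Slc44a1 (0.76), Gprc5b (0.75), Myrf, the regulator of myelin genes (0.75), and Zfp740 (0.74). Olig2 was closest to Slain1 (0.73), Ugt8a (0.71), which makes the myelin lipid galactosylceramide, Frmd4b (0.70), Svip (0.70) and Jmjd1c (0.67). Pdgfra was closest to Mgst1 (0.78), Itgav (0.76), Cpt1a (0.75), Adipor2 (0.74) and Atp6v0e (0.73), none of which is in the oligodendrocyte lists used here. Of the members not picked, Cspg4 was closest to Aldh3b1 (0.70), Nkx2-2 to Mapk4 (0.77) and Vcan to Rpp25l (0.74). For these members too, none of the 5 closest genes is in those lists.

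Array quality moved with 3 further members, with group means subtracted and 18 relations tested. Sox10 had r = 0.47 with the Gapdh ratio (rho 0.60, permutation p = 0.0055 and 0.00039, adjusted p = 0.0197 and 0.0035, 0.51 without the 2 farthest arrays) and -0.51 with the array median (rho -0.52, permutation p = 0.0024 and 0.0034, adjusted p = 0.0142 and 0.0206, -0.42 without the 2 farthest). Cspg4 had r = 0.47 with the array median (rho 0.48, permutation p = 0.0034 and 0.0056, adjusted p = 0.0154 and 0.0254, 0.36 without the 2 farthest). Gpr17 had r = -0.40 with it (permutation p = 0.0098, adjusted p = 0.0295), which did not pass by rho (-0.28, permutation p = 0.144, adjusted p = 0.235) and was -0.27 without the 2 farthest. The array median was 22.9 ± 1.3 in wild type, 23.2 ± 3.0 in vehicle Tg2576 and 23.2 ± 1.3 in treated Tg2576 (SD, n = 11 each). With the arrays centred on their medians, Gpr17 in treated Tg2576 stood at -0.41 from wild type (limma adjusted p = 0.194).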
